A study of Bos taurus with 81 samples.

Results

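Between the morula and the blastocyst of in vitro produced bovine embryos, the autosomal length covered by H3K27me3 peaks went from 156 ± 9.70 Mb to 276 ± 7.26 Mb (mean ± SD, n = 2 libraries per stage). The 4 peak lists of these libraries, out of 81 samples in the series, were compared bin by bin. The 29 autosomes were divided into 497598 bins of 5 kb, and a bin was called marked in a library where the deposited peaks covered at least 50% of it. A bin marked in both morula and both blastocyst libraries was called kept (22548 bins), a bin marked in both morula libraries and in no blastocyst library was called lost (3109 bins), and a bin marked in both blastocyst libraries and in no morula library was called gained (21830 bins). Of the rest, 427502 bins were marked in none of the 4 libraries, and 22609 were mixed, that is marked in a part of the libraries of a stage.

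The embryos were produced by maturing and fertilising slaughterhouse oocytes in vitro. Morulae were taken 122 h and blastocysts 172 h after insemination, all as untreated controls of an experiment that exposed other embryos to alpha-amanitin. Each CUT&Tag library, in which a transposase tethered to an antibody cuts DNA beside the marked histone, was made from a pool of about 1000 to 1500 blastomeres, so each value is a mean over many embryos and, in the blastocyst, over inner cell mass (ICM, the future embryo proper) and trophectoderm (TE, the future placenta). Nothing in the labels says that the 2 libraries of a stage came from separate cultures, so the spread between them may be technical. H3K4me3, H3K27ac and H3K9me3 libraries of the same stages (2 each), 3 ATAC-seq libraries of blastocysts, and H3K27me3 libraries of GV oocytes, of 2-cell, 4-cell and 8-cell embryos, and of ICM and TE (2 each) were read over the same bins. The 2-cell, 4-cell and 8-cell embryos were taken 32, 44 and 56 h after insemination. The 8-cell libraries used were those without alpha-amanitin. For ICM and TE the labels give no hours. No gene annotation of the build the lists use was at hand, so places are given by ARS-UCD1.2 coordinates and no gene is named.

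H3K27me3 is written by Polycomb repressive complex 2 and marks silenced developmental genes and broad repressed domains. The complex can bind the mark it lays down, and domains are therefore known both to spread outward from marked nucleosomes and to arise at new sites. H3K9me3 marks another form of silent chromatin, heterochromatin, while H3K27ac and H3K4me3 mark active enhancers and promoters. H3K27ac sits on the same lysine as H3K27me3, and a single histone tail cannot carry both. ATAC-seq reads open chromatin.

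The 2 morula lists covered 163 and 149 Mb of the autosomes with 15988 and 18492 peaks, and the 2 blastocyst lists 271 and 281 Mb with 20366 and 22230 peaks. Both blastocyst values lay above both morula values for length and for number. The mean length was 1.77 times higher in the blastocyst (difference 0.82 on the log2 scale), whereas the number of peaks was 1.24 times higher in the ratio of geometric means, and the peaks were wider. The median peak was 6.80 and 5.20 kb wide in the morula libraries and 9 and 8.20 kb in the blastocyst libraries, and the median gap between neighbouring peaks was 16.4 and 13.6 kb against 9.60 and 9.20 kb. Peaks of at least 20 kb held 35.7% and 30.7% of the marked length in the morula and 45% and 44.7% in the blastocyst. With 2 libraries against 2, the exact two-sided permutation test cannot go below p = 0.33. It gave that value for length, number, median width and median gap. The share in peaks of at least 20 kb was not tested. The same value came from each morula to blastocyst test of H3K9me3, H3K27ac and H3K4me3 cover below in which the libraries do not overlap.

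The lists hold no read counts, so the depth of the libraries is unknown and could not be matched. The weakest peaks differed between the stages: the 1st percentile of the deposited peak score per 200 bp was 2.44 and 2.11 in the morula lists and 3.58 and 4.63 in the blastocyst lists. The part of depth and of the peak threshold in the difference of length was not tested. Libraries of the same stage resembled each other more than libraries of different stages: the length shared by 2 lists, as a fraction of the length in either, was 0.722 for the morula pair, 0.770 for the blastocyst pair and 0.40 to 0.432 for the 4 mixed pairs.

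**Figure D1:**
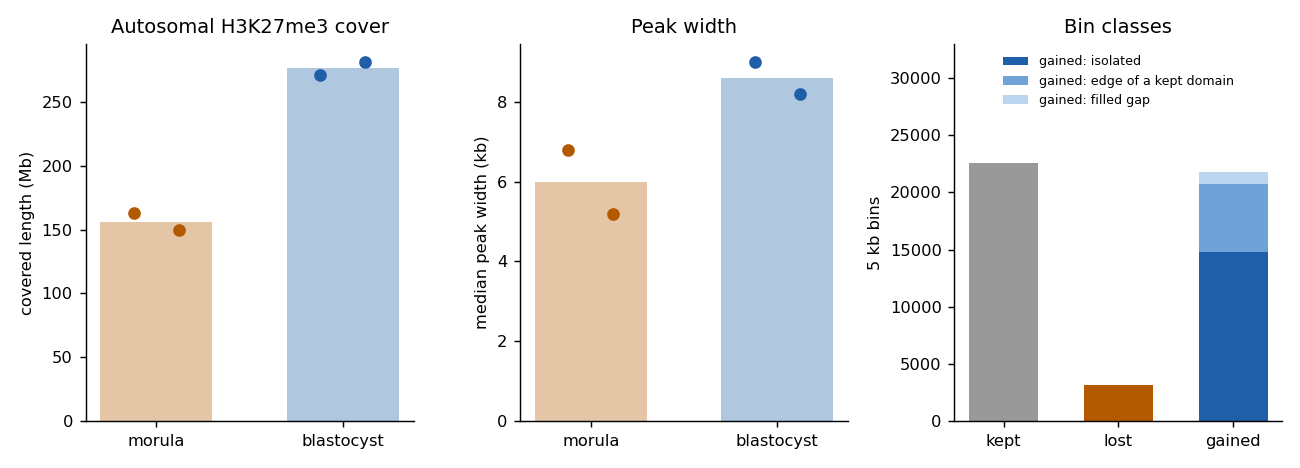
Left, autosomal length (Mb) covered by H3K27me3 peaks; centre, median peak width (kb); bars are means of the 2 libraries of a stage and points the libraries. Right, number of 5 kb bins in each class, with gained bins split by their contact with a kept domain: 14755 of the 21830 gained bins lie in isolated runs.

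Most of what the morula carried stayed. Of the 26933 bins marked in both morula libraries, 83.7% were marked in both blastocyst libraries and 11.5% in neither, the rest in 1. Seen from the blastocyst, the inherited and the new part were of nearly equal size: of its 49950 bins marked in both libraries, 45.1% were kept, 43.7% were gained and 11.2% had been marked in 1 morula library. As a share of all bins, 4.39% were gained and 0.625% were lost, a ratio of 7.02 gained bins to each lost bin. In lists cut back by peak score so that all 4 cover the same length, 7381 bins were gained and 7544 lost, a ratio of 0.978. Equal length makes gain and loss balance by construction, so those lists do not test the excess, and with depth unknown it is given only for the lists at their deposited length. A class needs all its libraries to agree, so leaving 1 out can only raise its count. Lost bins numbered 4171 and 5236 without morula replicate 1 or 2, and 3781 and 3713 without blastocyst replicate 1 or 2.

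Most gained and lost bins held no peak base at the stage where they were unmarked. The lists do not show signal below the peak threshold, so this is no measure of the size of the change. Among gained bins, 78.1% held no peak base in either morula library, and 43.6% were covered from end to end in both blastocyst libraries. Among lost bins, 81.0% held no peak base in either blastocyst library, but only 21.9% had been fully covered in both morula libraries. The limit of 50% had 2027 gained bins just inside it (lowest blastocyst cover 50 to 60%) and 3266 morula-free bins just outside (40 to 50%), and likewise 568 lost bins inside and 1086 outside.

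The deposited peak scores, which are the authors' own values and are ranked here only within a list, set new peaks apart from old ones. In the blastocyst lists, peaks that hold a kept bin had a median rank of 71.7 and 74.2 out of 100 for score per 200 bp, and peaks with a gained bin and no kept bin 35.2 and 38.8. In the morula lists, peaks with a kept bin ranked at 60.9 and 60.3 and peaks with a lost bin and no kept bin at 37.0 and 35.2. Domains that came and domains that went thus both belonged to the weaker part of their lists.

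Gained bins formed 11516 runs of neighbouring bins, and each run was classed by whether it touched a kept bin. Runs at the edge of a kept domain numbered 3203 and held 27.5% of the gained bins. A further 617 runs with 4.95% of the bins filled a gap between kept bins on both sides. The remaining 7696 runs, 66.8% of all, touched no kept bin and held 67.6% of the gained bins. In the lists as deposited, then, new isolated domains outnumbered runs of growth from kept domains, 7696 against 3820. Runs of either kind were short: the median was 5.00 kb in each, with 90% at or under 20 kb, and 426 isolated and 236 touching runs reached 25 kb.

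That split is sensitive to how strictly the morula is read. A bin marked in only 1 morula library counts neither as kept nor as gained, and 26.0% of the isolated runs lay beside a bin marked in at least 1 morula library. With morula replicate 1 left out, 50.4% of gained runs were isolated, and with morula replicate 2 left out 53.0%. With all 4 lists cut to equal length by score, 38.7% were isolated and 50.6% of gained bins lay in runs that touch a kept bin. The strictest reading still left a set of new domains away from old ones: 2527 runs, or 32.8% of the isolated runs, held no morula peak base and lay over 50 kb from any bin marked in either morula library. The median distance of an isolated run to the nearest kept bin was 65 kb.

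Gain was concentrated near morula domains. Among bins marked in neither morula library, 32.3% of those within 5 kb of a bin marked in both were gained, 22.1% of those at 5 to 10 kb, 16.0% at 10 to 20 kb and 9.80% at 20 to 50 kb. Farther out the share was 5.46% at 50 to 100 kb, 3.28% at 100 to 200 kb, 1.76% at 200 to 500 kb and 0.678% beyond 500 kb, against 4.74% over all 460913 such bins. Each blastocyst library on its own gave the same order, from 38.2% and 39.6% of the nearest bins marked to 0.871% and 1.01% of the farthest. Bins close to a morula domain were few: 2.79% of the morula-free bins lay within 5 kb of one, and 33.5% lay beyond 500 kb. In the lists cut to equal length by score the decline was present too, from 20.2% within 5 kb to 0.102% beyond 500 kb.

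Loss was more frequent in short morula domains and in outermost bins. Single morula bins standing alone were lost in 25.7% of cases, while bins of morula domains of 10 kb were lost in 16.4%, of 15 to 20 kb in 10.3%, of 25 to 45 kb in 6.09%, of 50 to 95 kb in 3.41% and of 100 kb or more in 3.65%. Outermost bins of a domain were lost in 17.2% of cases, the next bins inward in 6.94%, and bins 3 or 4 bins from the edge in 4.04%. The outermost bins include every single bin and every bin of the 10 kb domains, so edge and length were not separated. Of the 9997 morula domains, 16.8% were wholly lost and 69.2% wholly kept, and none of the 303 domains of 50 to 95 kb or of the 103 longer ones was wholly lost. The lost bins formed 2340 runs, of which 78.9% touched no kept bin and only 89 were holes inside a kept domain.

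**Figure D2:**
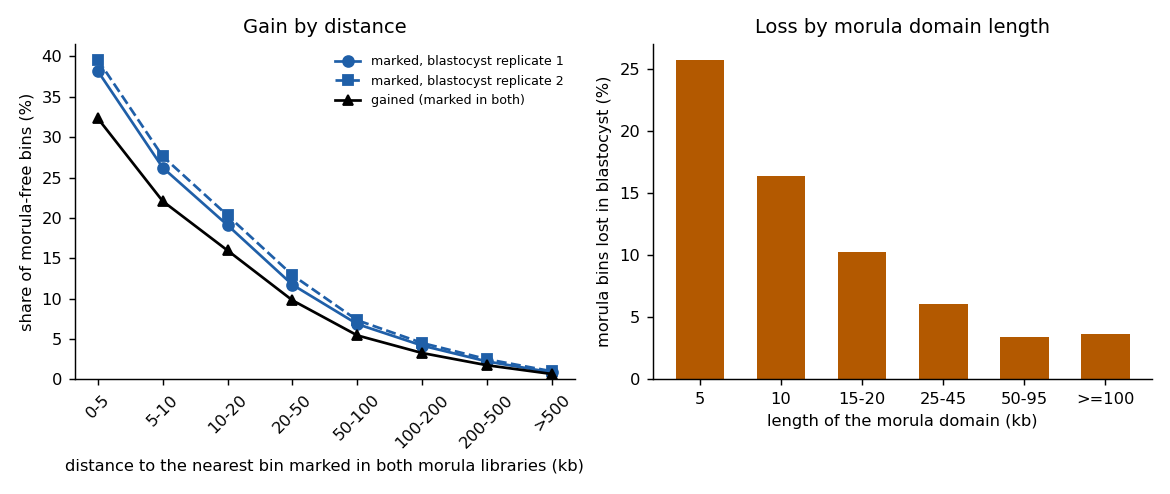
Left, share (%) of bins unmarked in both morula libraries that were marked in each blastocyst library and in both, by distance (kb) to the nearest bin marked in both morula libraries; the share in both falls from 32.3% within 5 kb to 0.678% beyond 500 kb. Right, share (%) of morula bins lost in the blastocyst by length (kb) of the morula domain, from 25.7% for single bins to 3.65% for the longest domains.

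The same picture came from the peaks without bins. In the 2 blastocyst lists, 43.0% and 47.9% of the peaks shared no base with any morula peak. These new peaks were narrower, with medians of 7.40 and 6.60 kb, than the peaks that met a morula peak, with medians of 11.4 and 11.2 kb. The blastocyst lists held 129 and 139 Mb outside morula peaks, and 40.9% and 39.3% of that length belonged to peaks that also covered morula bases. In the morula lists, 21.2% and 21.6% of the peaks shared no base with a blastocyst peak, and 83.7% and 85.3% of the morula length was covered again in the blastocyst.

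Some stretches of the blastocyst held several stretches of the morula. Taking only stretches marked in both libraries of a stage, the blastocyst had 21349 stretches and the morula 16805. Of the blastocyst stretches, 50.9% held no morula stretch but made up only 32.5% of the length, 38.9% held 1, and 10.1% held at least 2. The last group, 2164 stretches with a median length of 24.2 kb, held 5387 morula stretches and carried 27.9% of the blastocyst length. Of these, 101 held at least 5 morula stretches. A stretch is cut wherever the 2 libraries of a stage differ, and the count was not repeated in lists of equal length. The part of merging in the widening was thus not tested.

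The longest runs of each kind show what these classes look like in every library. The longest kept run spans chr16:75110001-75390000 (280 kb) and was covered to 98.6% and 97.1% in the morula libraries and 98.8% in each blastocyst library. It was already covered to 71.6% and 67.6% in the GV oocyte libraries and to 25.2 to 56.1% in the 6 cleavage-stage libraries, and to 97.5 to 99.0% in ICM and TE. H3K9me3 covered 61.2% and 68.9% of it in the morula and 88.7% and 94.0% in the blastocyst, so the run carried both silent marks over most of its length at the later stage. The next kept runs, chr9:101890001-102160000 and chr23:51690001-51960000, each 270 kb, likewise had more H3K9me3 cover in both blastocyst libraries, from 53.6% and 67.6% to 91.2% and 93.9% on chromosome 9 and from 55.8% and 72.5% to 72.7% and 83.4% on chromosome 23.

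The longest lost run, chr6:114485001-114550000 (65 kb), was a hole between kept bins. Both morula libraries covered it fully and both blastocyst libraries not at all. The ICM libraries covered 43.1% and 44.0% of it and the TE libraries none. Its H3K27ac cover was 7.85% and 8.69% in the morula and 15.6% and 16.8% in the blastocyst, both blastocyst libraries being the higher. At chr26:51000001-51050000 (50 kb), which went from 87.6% and 82.4% to 3.20% and 0%, H3K27ac cover went from 2.20% and 1.30% to 18.0% and 21.3%. The third lost run, chr11:105045001-105080000 (35 kb), was fully covered in all 6 cleavage-stage libraries, at 100% and 95.4% in the morula, and listed at 0 in the blastocyst, ICM and TE, while H3K9me3 covered at least 96.0% of it in all 4 libraries of the morula and the blastocyst.

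Among gained runs that touch a kept domain, the longest spans chr15:34930001-35025000 (95 kb). Morula libraries covered 1.05% and 1.26% of it and blastocyst libraries 93.3% each. It had no peak base in any cleavage-stage library, but GV oocytes covered 77.1% and 72.4% of it, and H3K27ac went from 12.3% and 15.8% in the morula to 0.684% and 1.11% in the blastocyst. At chr29:40130001-40210000 (80 kb) cover went from 2.50% and 2.00% to 98.3% and 96.8%, with 51.5 to 71.8% in the cleavage stages. At chr11:96840001-96915000 (75 kb) it went from 0% to 97.9% and 96.0%, with none in GV oocytes and 25.3 to 72.0% in the cleavage stages.

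The isolated gained runs were led by chr7:45445001-45545000 (100 kb), covered to 0% in both morula libraries and to 95.8% and 92.6% in the blastocyst. TE covered 88.8% of it in each library and ICM 46.6% and 41.2%. At chr4:47045001-47140000 (95 kb) cover went from 0% to 92.2% and 97.5%, with no peak base in the 6 cleavage-stage libraries. At chr28:27640001-27725000 (85 kb) cover rose, fell and rose again. GV oocyte libraries covered 0% and 16.7% of it, the cleavage-stage libraries 56.7 to 90.1%, both morula libraries 0%, and the blastocyst 94.6% and 91.3%. In the dissected blastocysts that run was covered to 89.2% and 96.2% in TE and to 0% and 10.6% in ICM. The 3 isolated runs carried next to no active marks at the later stage, with H3K27ac and H3K4me3 listed at 0 in both blastocyst libraries.

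Cover was higher in the blastocyst on every autosome. Both blastocyst libraries lay above both morula libraries on 29 of 29 autosomes (100%), and the ratio of blastocyst to morula cover ran from 1.35 to 2.47 with a median of 1.8. It was highest on chromosome 28 (morula 4.98% and 4.43%, blastocyst 11.6% and 11.6%), chromosome 15 (ratio 2.39) and chromosome 7 (2.18). The lowest were chromosome 6 (morula 4.63% and 4.26%, blastocyst 5.74% and 6.23%, ratio 1.35), chromosome 9 (1.40) and chromosome 4 (1.49). Over the 4 pairings of a blastocyst with a morula library the ratio ran from 1.24 to 1.46 on chromosome 6 and from 2.32 to 2.62 on chromosome 28. These 2 were picked as the lowest and highest of the 29 by the same ratio, so their distance is no test of a difference.

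Gain was more frequent on autosomes that already held more of the mark. The gained share of morula-free bins ran from 1.75% on chromosome 6 to 10.9% on chromosome 19, the autosome with the highest morula cover (12.4% and 11.4%). Over the 29 autosomes that share was related positively to the share of bins marked in both morula libraries (Pearson r = 0.82, Spearman rho = 0.79) and negatively to chromosome length (r = -0.66, rho = -0.65). The fold of cover did not track the starting level (r = 0.02, rho = 0.15). Loss ran the other way: the lost share of morula bins was related negatively to the starting level (r = -0.65, rho = -0.64) and positively to length (r = 0.66, rho = 0.64). These are descriptions over 29 chromosomes read in the same 4 libraries, and length and starting level were themselves related (r = -0.65). The gained share was also related to H3K4me3 cover in the blastocyst (r = 0.76, rho = 0.66), and less to H3K9me3 cover in the morula (r = 0.38, rho = 0.28). The part of length and starting level in these relations was not tested. Loss was highest on chromosome 10 (22.4% of its 615 morula bins), chromosome 1 (17.9%) and chromosome 4 (16.9%), and lowest on chromosome 19 (6.83%), chromosome 26 (6.90%) and chromosome 28 (7.80%). The split between isolated and touching gain varied little, with 59.2 to 76.8% of gained bins in isolated runs on each autosome.

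The ends of the chromosomes differed from the rest. Cattle autosomes have their centromere at one end, where coordinates start, so the last 10% of each is the end away from the centromere. That last 10% held 48.9% of all bins marked in both morula libraries, with a cover of 29.7% and 27.5%, against 3.99% and 3.62% over the first 90%. In the blastocyst it was covered to 33.6% and 34.1%, and the first 90% to 8.37% and 8.78%. The ratio was thus 1.18 at the end and 2.3 elsewhere, and the last 10% held 50.5% of the kept, 36.0% of the lost and only 13.8% of the gained bins. Per morula-free bin, however, gain was more frequent at the end (8.95% against 4.41%), and loss per morula bin was less frequent (8.50% against 14.4%). When all 4 lists were cut to equal length by score, cover of the last 10% was lower in the blastocyst than in the morula (log2 ratio -0.28). That of the rest had a log2 ratio of 0.20, against 1.18 as deposited, where a fixed total makes a lower value in one part a higher one in the other.

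Change was uneven at the scale of 1 Mb. Of 2473 full windows, 60.2% had both blastocyst libraries above both morula libraries and 16% had both below. The 10% of windows richest in gained bins held 45.6% of them. The window with the most gain, chr13:56000001-57000000, had 91 gained bins and no lost bin, with cover going from 8.64% and 9.20% to 56.3% and 58.3%. Its neighbour chr13:55000001-56000000 had 83 gained bins, and chr16:52000001-53000000 had 90 gained bins and a change from 4.56% and 4.66% to 53.7% and 52.7%. The window with the most loss, chr24:48000001-49000000, lost 32 of its 53 morula bins and gained 16, and cover went from 29.3% and 26.7% to 18.9% and 18.3%. At chr10:101000001-102000000, 28 of 77 morula bins were lost.

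**Figure D3:**
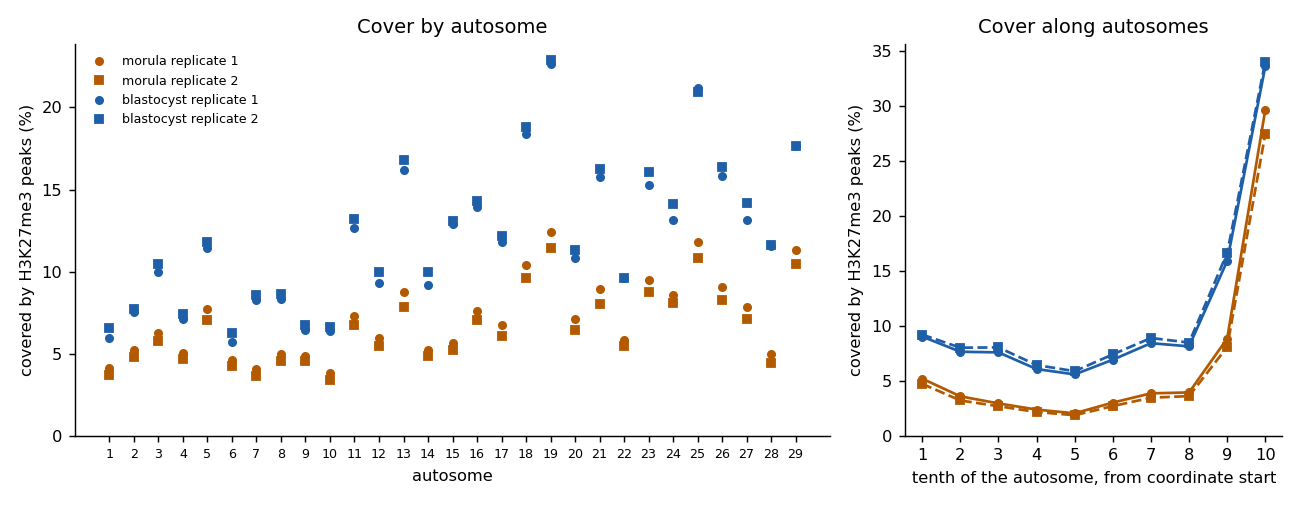
Left, share (%) of each autosome covered by H3K27me3 peaks in the 4 libraries (points); both blastocyst values lie above both morula values on 29 of 29 autosomes. Right, the same cover in 10 equal parts of the autosomes counted from the coordinate start; the last part is covered to 29.7% and 27.5% in the morula and 33.6% and 34.1% in the blastocyst.

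The other silent mark divided the classes. H3K9me3 peaks covered 29.9% and 38.1% of kept bins in the morula libraries and 50.3% and 61.3% in the blastocyst libraries, while over all bins the cover was 4.58% and 5.76% against 4.03% and 5.38%, with libraries overlapping. At lost bins H3K9me3 moved the opposite way, from 46.0% and 51.2% to 21.7% and 28.0%. Isolated lost bins carried this difference, with 49.3% and 54.0% against 20.4% and 26.2%, while at the 675 lost bins that touch a kept bin the stages overlapped, with 34.2% and 41% against 26.1% and 34.4%. At gained bins it went from 3.48% and 5.61% to 8.19% and 13.3%, and the bins touching a kept domain stood higher (11.1% and 18.0% in the blastocyst) than isolated ones (6.77% and 11.1%). At bins unmarked by H3K27me3 in all 4 libraries it went from 2.61% and 3.23% to 0.864% and 1.27%. In the lists as deposited, lost bins thus had more H3K9me3 in the morula than kept bins, but not in the last 10% of the chromosomes, where kept bins had 40.6% and 50.3% and lost bins 40.2% and 46.5%. In lists cut to equal length the order of the means turned, with 33.1% at lost and 38.5% at kept bins by score and 35.5% and 37.3% by score per 200 bp. Counted by bin at the limit of 50%, 728 lost bins (23.4%, against 1.71% of all bins) went from marked by H3K9me3 in both morula libraries to unmarked in the blastocyst. Lost bins began with more of it: 1482 (47.7%) were marked in both morula libraries, against 19765 (3.97%) of all bins. Of those, 728 of 1482 lost it, against 8528 of 19765 over all bins, so these counts set lost bins little apart. At kept bins 3915 (17.4%, against 1.24% of all bins) went the other way. The direction at kept and at lost bins held in the last 10% of the chromosomes and in the rest, with lost bins at 40.2% and 46.5% going to 31.3% and 39.2% in the last 10% and 49.3% and 53.8% going to 16.2% and 21.7% elsewhere.

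Bins that gained H3K27me3 were nearly free of H3K27ac in the blastocyst. It covered 3.15% and 3.28% of gained bins in the morula and 0.240% and 0.293% in the blastocyst, a ratio of 0.0830. Over all bins H3K27ac cover was lower too, from 4.63% and 4.53% to 1.97% and 2.21%, a ratio of 0.457, and relative to that genome-wide ratio the one at gained bins was 0.182. Touching and isolated gained bins did not stand apart in this, with ratios of 0.0880 and 0.0811. Counted by bin, 2267 gained bins (10.4%, against 14.1% of all bins) had H3K27ac bases in both morula libraries. Of these, 1882 (8.62% of gained bins) had none in the blastocyst. Over all bins, 34531 of 70281 (6.94% of all bins) had none. The reverse was seen at 25 gained bins (0.115%, against 0.8% of all bins). Kept bins were low at both stages, with 1.2% and 1.17% and then 0.384% and 0.485%.

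At lost bins the active marks were higher in both blastocyst libraries. H3K27ac went from 3.76% and 3.12% to 5.17% and 5.75% there, against the genome-wide direction, and H3K4me3 from 3.56% and 3.79% to 5.67% and 6.22%, against 1.74% and 1.93% and then 1.86% and 2.03% over all bins. H3K27ac appeared at 218 lost bins (7.01%, against 0.8% of all bins) and disappeared from 93 (2.99%, against 6.94%). H3K4me3 appeared at 167 lost bins (5.37%, against 1.08% of all bins) and disappeared from 26 (0.836%, against 0.695% of all bins). Those 26 were out of 349 lost bins with H3K4me3 bases in both morula libraries. Over all bins it was 3460 of 27923, a larger part. At gained bins H3K4me3 went from 2.09% and 2.21% to 1.31% and 1.56%, and at kept bins from 3.10% and 3.24% to 2.25% and 2.77%. ATAC peaks of the blastocyst covered 11.1% ± 2.36 of lost bins (SD, n = 3), 7.37% ± 1.61 of kept, 5.49% ± 1.23 of gained and 4.03% ± 0.728 of all bins, with the same order of the 4 values in each of the 3 libraries.

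Part of these patterns weakened in lists cut to equal length by score, where lost bins include weaker blastocyst domains. There, mean H3K27ac at gained bins went from 3.57% to 0.279%, and mean H3K9me3 at kept bins from 38.5% to 64.4%. At lost bins H3K27ac went from 2.31% to 2.77% and H3K9me3 from 33.1% to 29.8%, much smaller changes in the same directions.

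**Figure D4:**
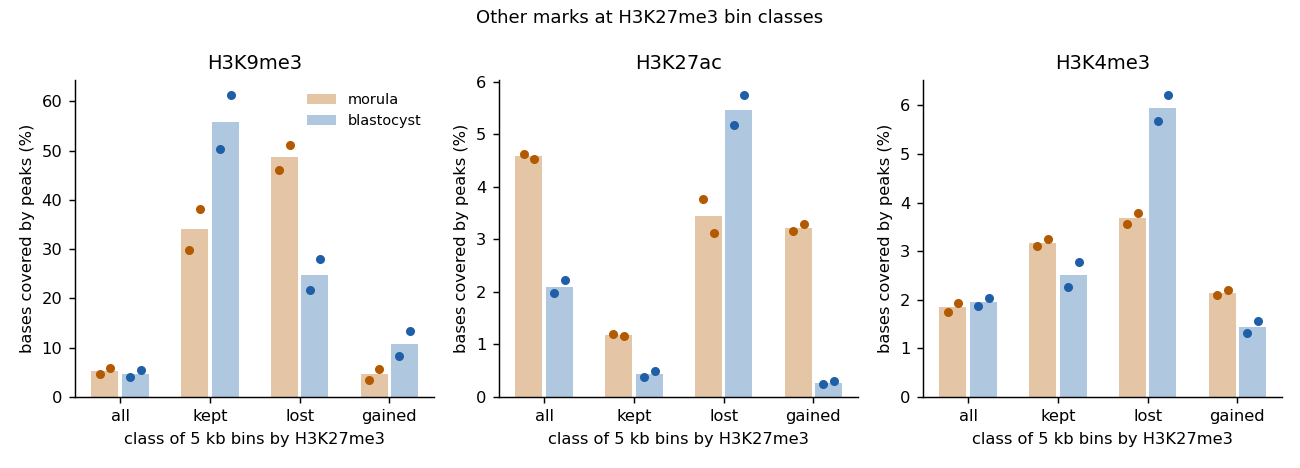
Share (%) of bases covered by H3K9me3, H3K27ac and H3K4me3 peaks in all, kept, lost and gained H3K27me3 bins; bars are means of 2 libraries, points the libraries, and the vertical scales differ. H3K27ac at gained bins goes from 3.15% and 3.28% to 0.240% and 0.293%, and H3K9me3 at lost bins from 46.0% and 51.2% to 21.7% and 28.0%.

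Loss and gain differed with the other marks a bin carried in the morula. Of bins marked by H3K27me3 in both morula libraries, 17.5% of those also marked by H3K9me3 in both were lost, against 9.12% of those with H3K9me3 in neither. With H3K27ac bases in both morula libraries 26.2% were lost (399 of 1521), against 10.1% with none, while for H3K4me3 the shares were 12.5% and 11.5%. All of these shares are for the lists as deposited. In lists cut to equal length by score, mean morula H3K9me3 was lower at lost bins (33.1%) than at kept bins (38.5%). Among bins without H3K27me3 in the morula and within 10 kb of a morula domain, 18.7% of those with H3K27ac in both libraries were gained, against 29.1% of those with none. At 10 to 50 kb the shares were 6.37% and 13.2%, and beyond 50 kb 1.8% and 2.11%. For H3K4me3 the order depended on distance, with 18.9% against 28.2% within 10 kb and 4.36% against 1.94% beyond 50 kb. H3K9me3 behaved likewise, with 18.3% against 28.1% within 10 kb and 13.4% against 11.6% at 10 to 50 kb. These shares are over bins of the same libraries and carry no test.

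The classes had different histories before the morula. Kept bins were marked in 69.8% and 66.3% of cases in the 2 GV oocyte libraries and in only 24.8% and 25.3% in the 8-cell libraries, and 36.7% of them were marked in both GV libraries and in no library of the 2-cell, 4-cell or 8-cell stage. Gained bins were marked in 28.2% and 25.3% of cases in GV oocytes and 14.3% and 14.6% at the 8-cell stage. Of the gained bins, 51.7% were unmarked in every library from GV oocyte to 8-cell embryo, against 80.9% of all bins, and 15.5% were marked in both GV libraries and in no cleavage-stage library, against 4.92% of all bins. Lost bins differed from both in their course, with 34.0% and 33.0% in GV oocytes and 26.3% and 26.1% at the 8-cell stage, about as often marked there as kept bins. Over all bins the corresponding shares were 9.78% and 9.80% in GV oocytes and 5.67% and 5.78% at the 8-cell stage.

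The dissected blastocysts, whose libraries had no part in defining the classes, carried the gained bins more often in TE than in ICM. Gained bins were marked in 85.1% and 88.9% of cases in the TE libraries and in 63.5% and 64.2% in the ICM libraries, although the 2 tissues had similar shares of all bins marked (11% and 11.5% against 10.1% in each). Kept bins were marked at 94.8 to 96.2% in all 4. Lost bins were marked in 4.95% and 5.05% of cases in TE and in 22.6% and 19.9% in ICM, so TE lay nearer to the whole blastocyst for both changes. In lists cut to equal length by score, where many lost bins are weaker blastocyst domains, the mean shares of lost bins marked were 51.4% in TE and 60.7% in ICM. Of the gained bins, 46.6% were marked in all 4 libraries of ICM and TE, 21.5% (4692 bins) in both TE and no ICM library, 3.18% (695 bins) in both ICM and no TE library, and 2.00% in none. Over all bins these shares were 7.06%, 1.94%, 1.16% and 85.2%. The share marked in TE alone was 25.4% for isolated and 13.3% for touching bins. Of the lost bins, 68.4% were marked in none of the 4, 14.8% (461 bins) in both ICM and no TE library, and 1.77% (55 bins) in both TE and no ICM library, the last close to the 1.94% of all bins. The mix of cell types in whole blastocysts and the level per cell cannot be told apart in such libraries.

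To set these shares on a common footing, the share of a class that was marked in a library was divided by the share of all bins marked in it. For gained bins the ratio was 6.25 to 7.73 in the 4 ICM and TE libraries and 2.42 to 2.59 in the 6 libraries of the 2-cell, 4-cell and 8-cell stages, a difference of 1.47 on the log2 scale. For kept bins it was 8.36 to 9.40 against 3.72 to 4.38, a difference of 1.16. For lost bins it was 0.439 to 2.23 against 3.82 to 4.64, a difference of -2.10. The 4 libraries did not overlap the 6 in any class. However, ICM and TE are the 2 parts of a blastocyst, the stage whose lists made the classes, though the labels do not say that the same embryos were used. The libraries also come in pairs from 5 stages or tissues, so these differences are given as a description. With the classes unchanged and these 10 lists cut to one length by score, they were 0.96 for gained, 1.72 for kept and -4.03 for lost bins. For lost bins ICM and TE lay on opposite sides of the level over all bins.

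**Figure D5:**
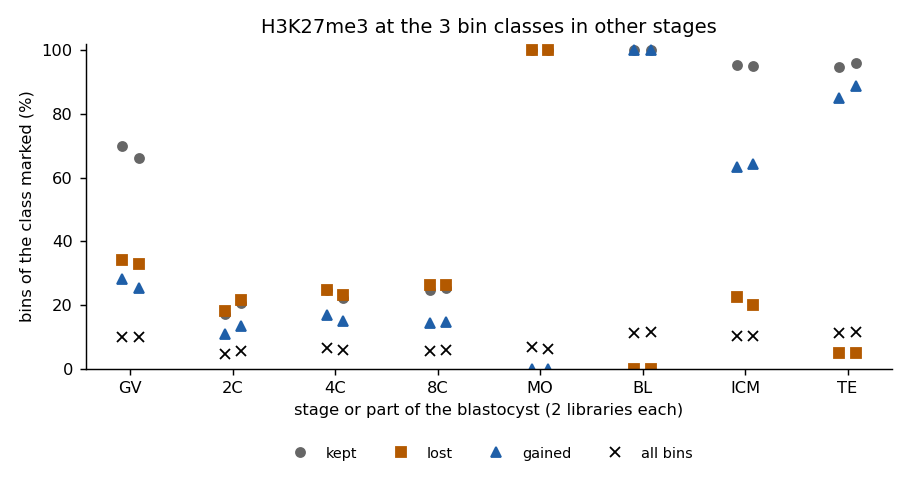
Share (%) of kept, lost, gained and all 5 kb bins marked by H3K27me3 in each of 2 libraries of GV oocytes, 2-cell (2C), 4-cell (4C) and 8-cell (8C) embryos, morula (MO), blastocyst (BL), ICM and TE. MO and BL values of 0 and 100% follow from how the classes were made; gained bins are marked at 85.1% and 88.9% in TE and 63.5% and 64.2% in ICM.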

How the data were processed

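The authors deposited 1 peak list per library, with coordinates, a name and a score per peak, and no counts. Per the submitters' processing notes, reads were trimmed with Trim Galore 0.4.0 and cutadapt 1.8.3, aligned with BWA 0.7.9a and handled with SAMtools 1.9 and Picard 2.26.10 on ARS-UCD1.2, and SICER is named among the tools. The meaning of the deposited score is not given in the sources used here, and it served only to rank peaks within a list. Peaks were listed per library, not on pooled libraries.

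Samples were grouped by their titles. H3K27me3 peaks of the morula and the blastocyst start and end on a 200 bp grid. Chromosome ends were taken as the highest peak end in any list, and partial last bins were dropped. Cover, bin classes, runs and distances were computed with Python 3 and NumPy, and tested on simulated lists with planted kept, lost and gained stretches. Tests were exact permutation tests over libraries. The planned test of ICM and TE against the cleavage stages is given without a p-value, since ICM and TE are parts of the stage that defines the classes. A morula-free bin was one marked in neither morula library. The runs named are the 3 longest of each kind, and the chromosomes named are the 3 highest and 3 lowest. The X chromosome and unplaced scaffolds stayed out of the classes. The bin classes, comparisons and lists were chosen with earlier results of these data known. Alternatives changed the bin size, the covered share, the peaks used and the libraries, and lists were cut to one covered length (149 Mb) by score. The main comparison did not pair libraries by replicate number. Over bins, the differences between replicates 1 and 2 of the morula and of the blastocyst correlated at r = 0.000113. That value cannot show whether libraries of the same number shared a culture or a day.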

Additional observations from a re-analysis of the deposited data

Results flagged for a closer look

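At the lost bins, ICM and TE departed from the genome-wide level in opposite directions. The share of lost bins marked by H3K27me3, divided by the share of all bins, was 1.16 and 0.98 on the log2 scale in the 2 ICM libraries and -1.16 and -1.19 in the 2 TE libraries, a difference of 2.24 between the means. All ICM libraries lay above the genome-wide level and all TE libraries below it. The difference itself was not tested, since 2 libraries against 2 cannot pass a threshold of 0.05. For lost bins defined in lists cut to equal length by score, the mean share marked was 60.7% in ICM and 51.4% in TE, both above the shares of all bins, so the opposite directions hold for the lists as deposited.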

How the results depend on the processing

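The log2 difference in covered length ranged over 0.76 to 0.89 with each library left out, and kept its direction. Leaving out 1 library gave 23806 to 28643 gained, 3713 to 5236 lost and 23152 to 26144 kept bins, with 32.4 to 49.2% of gained bins in runs touching a kept bin and 50.4 to 66.8% of gained runs isolated. The counts, unlike the shares, can only rise when a library is left out, since a class needs all its libraries to agree. The log2 differences between the 4 ICM and TE and the 6 cleavage-stage libraries ranged over 1.42 to 1.52 (gained), 1.14 to 1.19 (kept) and -2.50 to -1.72 (lost) with each library left out, and with these 10 lists cut to one length by score were 0.96, 1.72 and -4.03, and with bins marked by any base 1.37, 0.98 and -1.20. With a bin marked by any covered base, 5495 bins were lost and 62.2% of gained runs were isolated. With 80% required, 1697 were lost, 14241 kept, 22.8% of gained bins touched and 76.9% of runs were isolated. For touching bins and isolated runs, bins of 10 kb gave 30.5% and 69.5%, bins of 2 kb 20.3% and 73.1%, peaks of at least 5 kb 25.4% and 73.7%, and contact within 10 kb 40.7% and 58.6%. Lists cut to one length gave, by score, 7381 gained and 7544 lost bins, 50.6% touching and 38.7% isolated, and by score per 200 bp 6718 and 6795 bins, 53.8% and 42.3%. In these lists, an alternative for position, other marks and lineage shares chosen after seeing the data, the log2 ratio in the last 10% of the autosomes turned to -0.28 and -0.25. Equal length forces gain and loss to balance by construction; the cause of the other shifts was not tested. Pairing libraries by replicate number (replicate block) gave a mean log2 ratio of 0.82, with 0.73 and 0.91 in the 2 pairs and an exact p of 0.5. The lists carry no read depth, so low cover cannot be told from low depth, and 2 libraries per stage cannot give p under 0.33.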

Other observations

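The X chromosome, left out of the classes, was covered more in the blastocyst than in the morula, as the autosomes were, and more in ICM than in TE. H3K27me3 peaks covered 4.29% and 3.8% of it in the morula and 6.83% and 9.06% in the blastocyst. In ICM they covered 15.3% and 14.5%, and in TE 5.12% and 5.98%, while autosomal cover was 9.87% and 9.89% in ICM and 10.8% and 11.2% in TE. On the X, 668 bins were kept, 913 gained and 193 lost, and the lost bins made up 21% of the 919 marked in both morula libraries. The sex of the pooled embryos is not given in the sources used here. On unplaced scaffolds the covered length went down, from 4.92 and 4.20 Mb to 3.43 and 3.76 Mb.

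H3K27ac at gained bins differed with the tissue that carried H3K27me3. At the 4692 gained bins marked in both TE and no ICM library, H3K27ac covered 5.71% and 5.94% in the morula, 4.08% and 3.35% in ICM and 0.226% and 0.275% in TE. At the 10171 gained bins marked in all 4 libraries the values were 2.04% and 2.22% in the morula, 0.430% and 0.267% in ICM and 0.0875% and 0.0957% in TE. At the 695 gained bins marked in both ICM and no TE library, H3K27ac covered 5.22% and 4.94% in the morula, 0.669% and 0.394% in ICM and 1.84% and 2.04% in TE, so its morula level was close to that of the bins marked in TE alone. H3K9me3 over all gained bins also differed between the tissues, with 4.81% and 8.11% in ICM and 24.9% and 26.5% in TE, while over all bins it was 3.88% and 5.13% in ICM and 6.16% and 6.20% in TE.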
